A study of Mus with 4 samples.

Results

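Rn45s is named as the mouse gene for the ribosomal RNA precursor. It was examined in a TBX3 ChIP-Seq track of mouse primary hepatocytes, on chromosome 17 of GRCm38 from 39842997 to 39848829, a stretch of 5833 bp. It is 1 gene beside 49980 genes of the RefSeq annotation whose chromosomes the track holds. Rn45s was chosen by the scores of this same track, because a long called region lies in it, so its scores and all values that make up a score are given as descriptions, without a test. Its position was given with that choice and was not found in the annotation used here. That annotation has another pair of entries on the same stretch, the pseudogene Rn18s-rs5 (gene 110183, from 39846354 to 39848202) and the long noncoding RNA AY036118 (gene 101056014, from 39848112 to 39898385). Rn18s-rs5 lies wholly inside Rn45s, and 718 of the 50274 bp of AY036118 do. The annotation gives no strand, so positions are distances from the lower-coordinate end of Rn45s and say nothing of upstream or downstream. In what follows, the gene means the stretch of 5833 bp. That stretch may hold only a part of the precursor. Which parts it holds was not tested, since no genome sequence was used here.

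All libraries came from primary mouse hepatocytes carrying the construct pT2-SVNeo-EF1-eGFP-P2A-Tbx3-HA, in which an EF1 promoter drives GFP and an HA-tagged TBX3, a T-box transcription factor. The 2 TBX3 ChIP libraries hold chromatin pulled down with an anti-HA antibody, and the 2 Input libraries hold the sheared chromatin of the same kind of cells before that step. Every group thus overexpressed TBX3, and no library of cells without the tag and no IgG library was analysed here. Age, sex and strain of the mice were not in the labels.

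Ribosomal RNA is transcribed in the nucleolus by RNA polymerase I as a long precursor, from which the 18S, 5.8S and 28S RNAs of the ribosome are cut. The genes for the precursor lie in tandem arrays of many copies on several chromosomes, which a genome assembly largely leaves out. Reads from all these copies can then align to the few places where an assembly holds the sequence. Input, which holds the same copies, is therefore given beside the ChIP values.

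The deposited track is the −log10 of a p-value, called the score here. MACS2, a program that finds sites with many ChIP reads, computed it by asking how probable more reads than the ChIP pileup at a base would be if the reads followed a Poisson distribution around a level expected from Input. There is 1 track and no value per library, and which of the libraries entered it is not stated, so no score has a replicate error. The depth per library is unknown from the track. A called region is a stretch of 200 bp or longer in which bases score 5 or above, with dips of up to 30 bp bridged. Regions were called on the 21 main chromosomes only, out of 65 sequences in the track. The mitochondrial genome and the other sequences were left out of the calls.

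Nearly the whole of the stretch given as Rn45s was raised. Of its bases, 94.96% (5539) scored 5 or above, and the mean score was 11.1. Of 49277 annotated genes with reads, 8.15% held a base at 5 or above, so 1 such base is common, whereas by the mean score Rn45s had rank 4 of 49278, after Rn18s-rs5 inside it, 1700016A09Rik and Mir7687. Its highest score, 29.0, was reached or passed in 5 other genes, Stab2, Phldb2, Slx4ip, Haus8 and Oxsr1, and in no other noncoding gene among 27731 including Rn45s. Of all bases of the track at 5 or above, 1.43% lay in Rn45s.

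The called bases formed 3 regions that together covered 5645 bp, or 96.8% of the gene. The first ran from 16 to 860 bp (845 bp, highest score 16.0). The second ran from 932 to 2291 bp (1360 bp, highest score 15.8). The third is the long region by which the gene was selected, and ran from 2374 to 5813 bp (39845371 to 39848810, 3440 bp, highest score 29.0). They were the 3 longest of the 125 called regions of the 21 main chromosomes, and held 11.9% of the total called length there. The longest other region measured 745 bp, and the other 122 had a median length of 313 bp.

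The breaks between the 3 regions were shallow. A dip of 71 bp at 861 bp, with a lowest score of 2.70, parted the first from the second, and a dip of 82 bp at 2292 bp, with a lowest score of 2.26, parted the second from the third. Inside the regions, the longest dips that were joined measured 30 bp at 1143 bp, with a lowest score of 3.98, and 29 bp at 4405 bp, with a lowest score of 4.18. In both breaks ChIP still exceeded the expected level, by 1.32-fold and 1.33-fold on average.

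**Figure D1:**
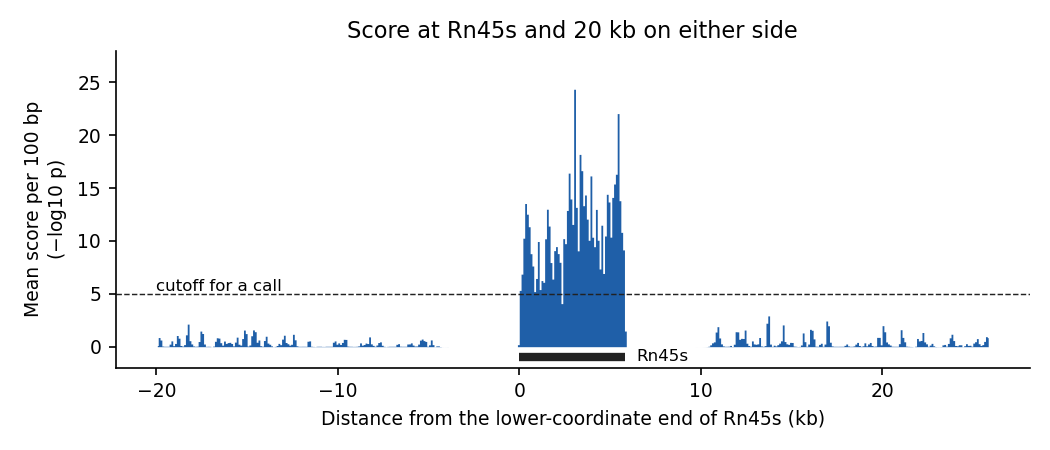
Mean score (−log10 p) in bins of 100 bp against the distance from the lower-coordinate end of Rn45s in kb, with 20 kb on either side. The dashed line marks the score of 5 used for a call and the black bar marks Rn45s. The raised scores fill the gene and end at its borders, and the flanks have no base at 5.

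The raised stretch ended at the borders given for Rn45s. The first base at 5 or above lay 16 bp inside the lower end and the last lay 19 bp inside the upper end. The score was 9.44 at 50 bp before the upper end, 1.29 at the end and 8e-05 at 50 bp past it. At the lower end it was 1.77, with 0.00104 at 50 bp outside and 5.55 at 50 bp inside. No base within 20 kb on either side reached 5, the highest score being 3.02 below the gene and 4.31 above it.

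The flat flanks next to Rn45s cannot be read as a lack of TBX3. MACS2 takes the expected level from the widest Input window, of 10 kb, where that is the highest, and near the gene this window reached into it. Just outside the lower and the upper end it held 4700 and 4605 Input reads, which gave expected levels of 58.9 and 57.7 reads at bases where the ChIP pileup was 36 and 35. The score therefore stayed at 1e-05, the lowest of the track, over 3777 bp below and 3743 bp above the gene. Between 5 and 20 kb away the ChIP pileup averaged 1.54 reads below and 1.90 above, against expected levels of 2.66 and 2.91. AY036118 owed its highest score, 28.5, to the part it shares with Rn45s, and past the gene its highest score was 4.31 and its mean 0.359.

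The reads behind the scores could be recovered. Each score of the gene was matched by a whole number of ChIP reads, extended to 150 bp, and a whole number of Input reads multiplied by a scale of 0.835, to within 1e-05 of the score. Of the intervals of the track in Rn45s, 88.5% were matched exactly and the rest differed by 1 in the last decimal. Every base received such a pair, and for 99.5% of the bases the expected level came from Input in a window of 150 bp, that is, from Input at the base itself. These reads are inferred and are not in the deposited track.

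ChIP and Input were both very high along Rn45s. The ChIP pileup averaged 190 reads over a base (range 69 to 244) and the Input pileup 136 reads. The expected level from Input averaged 113 reads (range 56.9 to 146), 46.5 times the genome-wide level of 2.43 reads. The ChIP pileup was above the expected level at all 5833 bases, by 1.68-fold on average, with an SD over bases of 0.187 and a range of 1.21 to 2.59. Over the longest unbroken stretch of bases with a 150 bp window, 5756 bp, pileups that amount to 7316 ChIP and 5235 Input reads gave a ratio of sums of 1.67, with a 95% interval from 1.62 to 1.73 (exact Clopper-Pearson interval of the ChIP share). That interval covers counting error only, not the spread between libraries. It also takes reads as free counts and leaves out the limit on read ends described below.

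**Figure D2:**
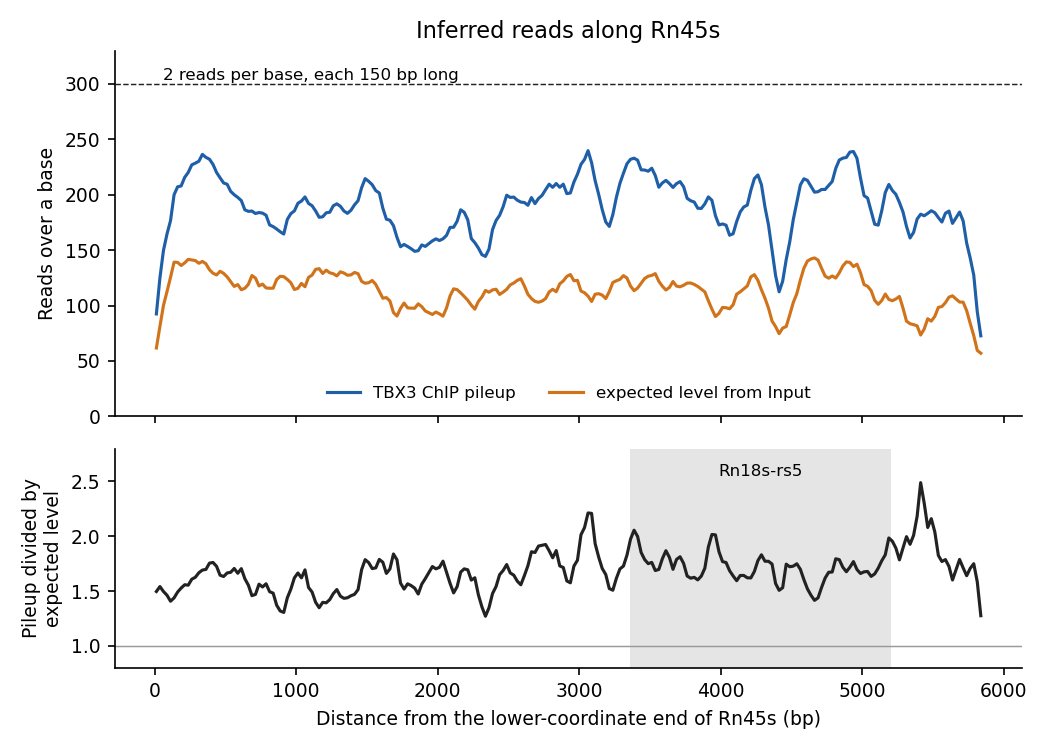
Inferred TBX3 ChIP pileup and expected level from Input, in reads over a base, and their ratio, in bins of 25 bp against the distance from the lower-coordinate end of Rn45s in bp. The dashed line marks the 300 reads that 2 read ends per base allow, and the grey band marks Rn18s-rs5. Both curves share the dip between 4000 and 4500 bp but move apart near 3062 and 5412 bp, where the scores are highest, and the ratio stays above 1 throughout.

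ChIP and Input rose and fell together over much of the gene, but not at its highest summits. Both dropped between 4000 and 4500 bp, where the ChIP pileup went down to 110 and the expected level to 72.6, and both were high between 4500 and 5000 bp, where they averaged 215 and 131 reads. In bins of 25 bp, the pileup rose from 161 to 182 reads between 5337 and 5412 bp while the expected level fell from 83.6 to 73.3. Over the 11 parts of about 500 bp the mean pileup and the mean expected level had a Pearson r of 0.74 and a Spearman rho of 0.69. The points share libraries and neighbouring parts share reads, so this is a description without a p.

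The part with the highest mean score lay from 3000 to 3500 bp. Its mean score was 16.3, its pileup 214 reads and its expected level 116 reads. The last part, from 5000 bp to the upper end, came second with a mean score of 13.6, and the parts from 3500 to 4000 bp (13.2) and from 2500 to 3000 bp (12.9) followed. The 5 parts from 0 to 2500 bp had the 5 lowest mean scores, 7.58 to 9.71. Parts of 250 bp put the highest mean score at 5250 bp instead, and the mean ratio put it in the last part.

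By the ratio the parts lay closer together than by the score. The ratio of summed pileup to summed expected level was 1.51 (95% counting interval 1.34 to 1.70) in the lowest part, from 1000 to 1500 bp, and 1.84 (1.64 to 2.07) in the highest part, from 3000 to 3500 bp. In the last part it was also 1.84 (1.66 to 2.03). Mean ratios over the 11 parts had an SD of 0.117 around 1.67. No test of a difference between parts was run, since the gene was selected on these values, and an overlap of intervals does not show that parts are alike.

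**Figure D3:**
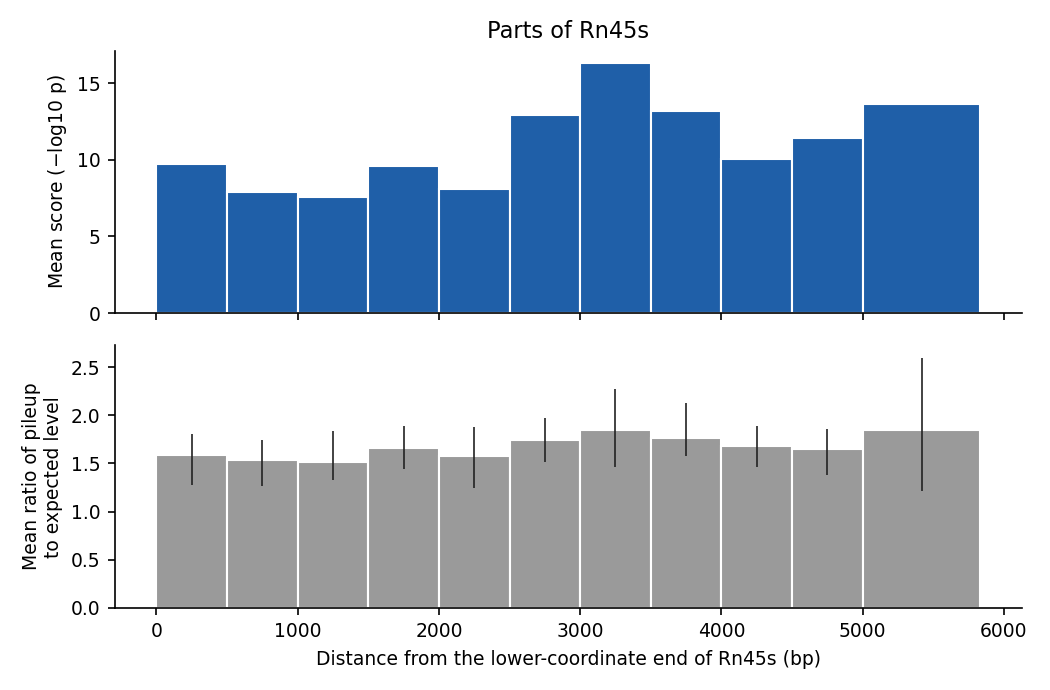
Mean score (−log10 p, upper panel) and mean ratio of ChIP pileup to expected level (lower panel) in 11 parts of Rn45s, by distance from its lower-coordinate end in bp, the last part being 833 bp long. Lines in the lower panel run from the lowest to the highest ratio of single bases. Mean scores run from 7.58 to 16.3 while mean ratios run from 1.51 to 1.85.

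By annotation, the stretch below Rn18s-rs5 had a ratio of sums of 1.62 (1.55 to 1.70), Rn18s-rs5 itself, named as a sequence related to 18S, 1.71 (1.61 to 1.82), and the 627 bp above it 1.87 (1.66 to 2.11). The mean scores were 9.96, 12.2 and 14.01.

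The highest summits differed in how they came about. At 3063 bp (39846060) the score was 29.0, with 241 ChIP reads and 127 Input reads, a ratio of 2.27. Here ChIP was near its highest in the gene and Input was below its mean of 136. At 5422 bp (39848419) the score was 28.5, with 182 ChIP reads and 84 Input reads, a ratio of 2.59. Here ChIP was below its mean of 190 and Input was low. The next summits were all inside Rn18s-rs5, at 3386 bp (score 24.0, ratio 2.11), 3951 bp (20.3, 2.12) and 5196 bp (20.2, 2.04). The lowest ratio away from the borders was 1.24, in the part from 2000 to 2500 bp.

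The read ends gave a limit to both pileups. From one base to the next, ChIP and Input each changed by at most 2 reads. When changes 150 bp apart were added up, which follows the reads that end as others begin, the running sum stayed within a range of 2 at all 150 offsets in ChIP and in Input. At an extension of 149 or 151 bp it did so at 0% of offsets. Each base thus held the lower end of 0, 1 or 2 reads and never more, over 5755 bases. In ChIP, 13.3% of the bases had 0 ends, 46.3% had 1 and 40.4% had 2. In Input the shares were 30.2%, 48.7% and 21.04%.

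**Figure D4:**
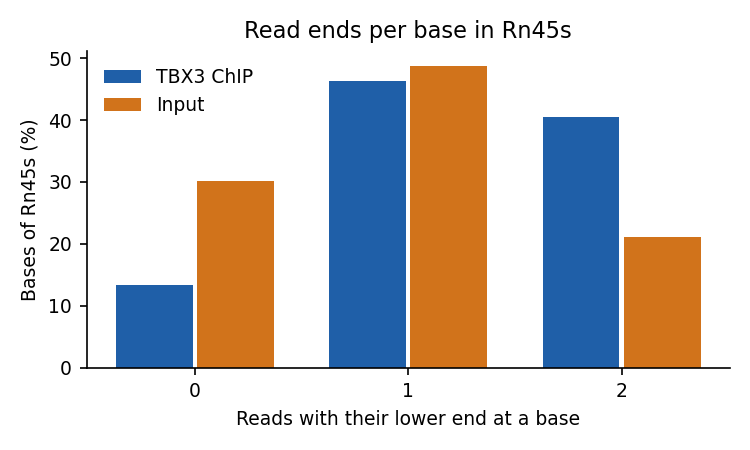
Share of the bases of Rn45s (%) that hold the lower end of 0, 1 or 2 inferred reads, for TBX3 ChIP and Input. No base holds more than 2, and ChIP has 2 ends at 40.4% of bases against 21.04% in Input.

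With at most 2 ends per base, 150-bp reads can reach a pileup of 300, and an expected level of at most 103 times the genome-wide level. ChIP filled 63.6% of these places in Rn45s and Input 45.4%, and the highest pileups were 244 and 175. Any further reads with the same end would not show in the track, so neither the number of gene copies nor the full excess of ChIP can be read from these pileups. If the places were filled independently and at random, the ratio of the rates of ChIP and Input, divided by the Input scale of 0.835, would be 1.997. That assumption was not tested, and the value was added after the data were examined. Per base, ends in ChIP and in Input were nearly unrelated (Pearson r of 0.07 over 5755 bases, which share the sequence). Bases with 2 Input ends had 1.34 ChIP ends and bases without one had 1.21.

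The score is computed from the pileup and the expected level, so it depends on both their ratio and the level itself. Over the 11 parts of the gene the mean expected level had an SD of 11.4 reads around 114 and the mean ratio an SD of 0.117 around 1.67. Across these parts the mean score had a Spearman rho of 0.945 with the mean ratio. With the mean expected level it had a Pearson r of -0.171. One coefficient is of ranks and the other of values, so their sizes cannot be compared directly. The score is made from the ratio and the expected level, so these are descriptions without a p. By arithmetic alone, the ratio of sums found in Rn45s gives a score of 1.00 at the genome-wide level of Input. Pileups were rounded down to whole reads here and in the steps that follow. The same ratio gives 2.89 at 10 times that level, 5.08 at 20 times and 11.2 at 50 times. When pileup and expected level of each base of Rn45s were brought down to the genome-wide level, the ratio was kept except for that rounding. No base then reached 5, and the highest score was 1.90. That no base reached 5 was fixed in advance, since 5 takes a ratio of 4.52 there and the highest ratio was 2.59. Whether the reads were paired is not stated in the sources used here. If they were and each pair was counted once, by dividing pileup and expected level by 2, 66.1% of the bases stayed at 5 or above and the highest score was 15.03.

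The rest of the called regions differed in the level of Input. At 111 of the 122 regions outside Rn45s the ChIP pileup was at least 5 times the expected level at the summit, and at the other 11 it was less than 3 times. These 11 were also the regions with an expected level above 4 times the genome-wide one (29.2 to 104 reads), and their ratios were 1.81 to 2.48. At the summits of the 3 regions in Rn45s the ratios were 1.80, 1.83 and 2.27 and the expected levels 129, 118 and 106 reads, the highest of all 125 regions. A score of 5 takes 11 reads at the genome-wide level, a ratio of 4.52, so the cutoff itself leaves out regions with a low ratio at low Input. At the other side, the limit of 300 reads on the pileup put a ratio of 3 out of reach at the summits in Rn45s. Their low ratios were thus fixed in part by that limit. Whether it acts at the other regions with high Input was not tested.

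**Figure D5:**
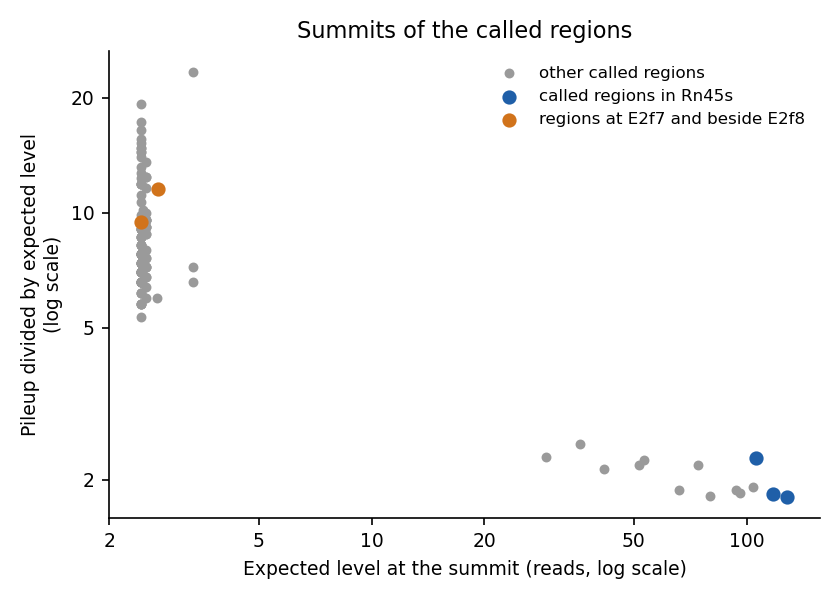
Ratio of ChIP pileup to expected level against the expected level in reads at the summits of the 125 called regions, both on log scales. The 3 regions in Rn45s lie at the lower right with 11 others, at expected levels of 29.2 reads or more and ratios below 3, and the regions at E2f7 and beside E2f8 lie among the rest at the left. In Rn45s the limit of 300 reads keeps the ratio below 3 at these expected levels.

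The regions most like Rn45s in the level of Input were in Filip1l (expected level 104 reads, ratio 1.91), Gm36876 (96.0, 1.84), Lars2 (93.5, 1.88) and Cdk8 (80.2, 1.81). The next (74.3, 2.18) lay outside genes, 109191 bp from Gm8797, the nearest one. Lars2 encodes the mitochondrial leucyl-tRNA synthetase and Cdk8 a kinase of the Mediator complex. Each of these regions was short, 238 to 491 bp. Whether their sequence resembles ribosomal DNA was not tested, since no genome sequence was used here. The 5 longest regions after those of Rn45s lay at 1700016A09Rik (745 bp), Apbb3 (712 bp), Neat1 (664 bp), Mrpl48 (650 bp) and 1700125G22Rik (641 bp). They were unlike Rn45s in Input, with expected levels of 2.43 to 2.50 reads and ratios of 7.39 to 14.4.

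The study's own sites were among the 111. At E2f7, which encodes an atypical E2F repressor of the cell cycle, the summit had 31 ChIP reads over an expected level of 2.69, a ratio of 11.5 and a score of 22.8. The region beside E2f8, its close relative, had its summit 830 bp past the upper end of that gene inside Gm2788, with 23 reads, a ratio of 9.45 and a score of 15.5. The third region in Rn45s had the higher score (29.0) with the lower ratio (2.27). The limit of 300 reads kept a ratio like those at E2f7 and E2f8 out of reach in Rn45s.

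Other ribosomal RNA genes did not reach the cutoff. Of 65 annotated ones, 64 lay where the track has reads. Of these 64, 0 held a base at 5 or above, beside 8.15% of all genes, which are of any length. Most of the 64 are short, and a short gene has few bases that could reach 5. The pair of shares was not matched for length, so this 0 cannot be read as a lack of raised scores. No p-value across genes was computed, so this 0 has no count at an unadjusted threshold. The gene left out of the 64 was Rn28s1, which the annotation lists near the start of chromosome 11, where the track has no reads. Whether that position fits the build of the track was not tested, so nothing is given for this gene. The highest was Rn4.5s (2.22), with a mean pileup of 14.7 reads over a mean expected level of 9.20. Its mean ratio was 1.60, beside 1.68 in Rn45s. The 1 kb surroundings of Rn4.5s held a score of 5.27. Rn4.5s was the 1 gene of the 64 to reach 5 with 1 kb on either side, beside 9.39% of all genes, again of any length. The 48 genes on chromosome 8, which encode the 5S RNA made by RNA polymerase III, had highest scores of 0.0370 to 1.90. Their mean pileups were 0 to 6.18 reads, their mean expected levels 2.43 to 4.71 and their mean ratios 0 to 1.78. Per annotated copy, the 5S genes thus lacked the high Input seen at Rn45s. How the alignment shared reads among the 48 copies was not tested, so their total Input cannot be read from these values.

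The mitochondrial genome, which has high Input as well, was looked at beside Rn45s. There the mean expected level was 195 reads and the mean ChIP pileup 173 over the 73.2% of its 16299 bases whose scores could be resolved, a mean ratio of 0.887. The other bases have scores below 0.0002, where ChIP lies furthest under the expected level, so these means leave out the lowest ratios and the ratio over the whole genome of the mitochondrion is lower. Its highest score was 2.40. The mitochondrial ribosomal RNA gene mt-Rnr1 had 166 ChIP reads over an expected 190. Divided by the Input scale, that expected level amounts to 233 Input reads, or 77.7% of the 300 that 2 ends per base allow. It comes from the highest of the Input windows at the resolved bases, so it can exceed Input at the base itself. The 45.4% in Rn45s was counted from read ends, so the shares are unlike measures. Whether the same limit acts on the mitochondrial genome was not tested, so the ratios of the pair cannot be compared directly.

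A list of genes, most of which make or process ribosomal RNA, was compared with all protein-coding genes by the scores near their ends. It holds RNA polymerase I subunits and factors, nucleolar proteins and processing factors. It also holds genes of other kinds, among them Mdm2 and the ribosomal protein gene Rpl11. Of the 55 genes listed, 1 had a score of at least 5 within 1 kb of either end, beside 3.66% of 21547 protein-coding genes. That gene was Pes1 (5.01), whose product joins a complex needed for maturation of the large subunit's RNA. The median of the highest scores was 2.44 in both sets. Npm1, which encodes a nucleolar chaperone, and Rpl11, for a ribosomal protein, both had 4.89. Bop1, Dis3, Mdm2, Taf1a and Top1 shared the next score, 4.31. The lowest was Nip7 (0.999), a factor of ribosomal RNA processing. The next lowest score, 1.42, was shared by 8 genes, Exosc10, Polr1e, Polr2k, Polr2l, Tcof1, Tsr1, Utp4 and Wdr43. At a cutoff of 3, 23 of the 55 (41.8%) were called, beside 29.5% of protein-coding genes, and at a cutoff of 10 it was 0, beside 0.283%. Within 2 kb of either end, 3 genes (5.45%) reached 5, beside 5.26%, and 5 genes (9.09%) did so anywhere in the gene and 1 kb around it, beside 15.7%. The 3 were Ubtf (6.51), which encodes a factor of RNA polymerase I, and Pes1 and Mdm2 (both 5.01). The 5 were Mdm2 (6.51), Utp18 (5.75), Rpl5 (5.61), and Ncl and Pes1 (both 5.01).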

How the data were processed

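Chromatin of TBX3-overexpressing hepatocytes was sequenced as 2 TBX3 ChIP and 2 Input libraries. Per the submitters' processing notes, Bowtie2, SAMtools and MACS2 and the build mm10 were used. Versions, the treatment of duplicates and how libraries were combined were not given in the sources used here. The authors deposited 1 track of −log10 p-values, which was used as it is, with 0 other columns of per-sample values. Intervals cover counting error only, since depth per library is unknown, and they take no account of the limit of 2 read ends per base.

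The gene, the lists and the settings were chosen with earlier results of these data known. The genes named are Rn45s, genes within 20 kb, ribosomal RNA genes at a score of 5 or above (Rn4.5s, mt-Rnr1 and Rn28s1 were added after their values were seen), the RNA polymerase I pathway genes with the 5 highest and 3 lowest scores including ties, the 5 called regions with the highest expected level, the 5 longest other ones, and E2f7 and E2f8. Genes ranked as high as Rn45s, and pathway genes that reached 5 in the wider windows, were named after their values were seen. Genes were placed by RefSeq GRCm38.p6, and 703 of them in long stretches with a constant score were left out.

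The score was recomputed as MACS2 sums it. The genome-wide level came from the most frequent scores. The Input scale was the one at which most scores of Rn45s (88.1%, against at most 22.7% for other whole read numbers) exactly matched whole reads in 150 bp. The pileup and the level (genome-wide, 150 bp, 1 kb or 10 kb window) were then chosen along the chromosome with the fewest changes. Scores below 0.0002 were not resolved. The steps were tested on simulated reads. No test was run between groups. Alternatives covered the cutoff, gaps, minimum length, part size, counting of read pairs, Input level and gene windows. No sequence was printed, as none was used here. The tools were numba 0.67.0, scipy 1.17.1 and numpy 2.4.6 in Python 3.11.15, with pandas 2.3.3 for tables and matplotlib 3.10.9 for figures.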

Additional observations from a re-analysis of the deposited data

How the results depend on the processing

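Of 30 alternatives, 14 left the result within a tolerance and 16 moved it beyond. The tolerance was 1.5 times for lengths, ranks and counts, 1 SD over the bases of Rn45s for the score and the ratio, and an equal start for the part. The called length of Rn45s, 5645 bp, fell to 3129 bp at a cutoff of 10, to 3660 bp with each read pair counted once, if the reads were paired, and to 0 bp with the ratio kept at the genome-wide level of Input. The highest score went from 29.0 to 15.03 and 1.90 under the last pair of settings, and the median score was 10.7. Both of these settings rounded pileups down to whole reads. The 0 bp at the genome-wide level was fixed in advance, since a call there takes a ratio of 4.52 and the highest ratio was 2.59. The median is another measure than the highest score, though it was counted among the alternatives. The ratio of 1.68 became 1.997 if the 2 places per base fill at random. The part with the highest mean score began at 3000 bp, but at 5250 bp with parts of 250 bp and at 5000 bp by the mean ratio. The rank among genes, 6, was 13 by the score within 1 kb of either end and 1 among noncoding genes. With 1 kb on either side, 1 ribosomal RNA gene reached the cutoff, beside 9.39% of all genes, which are of any length. Of the RNA polymerase I pathway genes, 23 reached a cutoff of 3 (29.5% of protein-coding genes did) and 0 a cutoff of 10 (0.283%), 3 reached 5 within 2 kb of either end (5.26%), and 5 anywhere in the gene and 1 kb around it (15.7%). No paired analysis was possible because the track holds no value per library and no result comes from a test; leaving out a replicate could not be done for the same reason. The depth of each library is unknown, so no limit on a difference between parts of Rn45s was set.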
